A study of Mus musculus with 12 samples.

Results

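The cycling cells of the mammary tumor of mouse 2 (MT2) were chosen by the raw counts of 6 genes. A cell of an MT2 library was taken as cycling when it held 4 or more unique molecular identifiers (UMIs, the tags that mark single captured RNA molecules) summed over Top2a, Mki67, Cenpf, Cenpe, Tpx2 and Aspm, and no UMI of the leukocyte genes Ptprc and Tyrobp or the endothelial genes Pecam1 and Cdh5. The rule gave 3896 cycling cells (972, 1997 and 927 in MT2 replicates 1, 2 and 3) of 10314 MT2 cells and of 21157 cells in the whole series. The reference, called non-cycling here, was the 2850 MT2 cells with 0 UMIs of the 6 genes and the same exclusions (753, 1266 and 831 cells). Another 3324 cells held 1 to 3 UMIs of the 6 genes and 244 cells carried a UMI of the 4 excluding genes. RNA of single cells was read with Drop-seq, in which droplets pair each cell with a barcoded bead and the 3′ ends of polyadenylated RNA are read. The donors were 2 mice on a mixed C57BL/6 and 129/Sv background that carried MMTV-Cre and 2 floxed Brca1 alleles, and from each the fourth mammary glands (MG1, 2 libraries, and MG2, 2 libraries) and a tumor (MT1, 5 libraries, and MT2, 3 libraries) were dissociated. Every group was therefore Brca1 flox/flox with Cre driven by the MMTV promoter, which is active in mammary epithelium, no group without the floxed alleles or without Cre was included, and ages are not given in the labels used here. Red blood cells were lysed, and hematopoietic and endothelial cells were depleted, before encapsulation. The 3 MT2 libraries are repeated libraries of 1 tumor, so p-values measure the spread between these libraries and not between tumors or mice.

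A dividing cell copies its DNA in S phase, condenses and separates the chromosomes in mitosis, and reads different genes for these steps. Genes of DNA replication are switched on by E2F factors around the entry into S phase, whereas the genes of mitosis are read later, through promoters with CCAAT boxes and the cell cycle genes homology region (CHR). Top2a untangles DNA strands, Mki67 coats mitotic chromosomes, Cenpe and Cenpf act at the kinetochore where chromosomes meet the spindle, and Tpx2 and Aspm organize the spindle, so the 6 genes mark mainly late S phase, G2 and mitosis, and a cell early in the cycle can hold none of them.

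The promoters of some genes that define or follow the cycling state are shown because the share of promoters that hold the searched letters differed between genes of mitosis and genes of replication. Sequences are from RefSeq (mouse GRCm38.p6), 5′ to 3′ on the strand of the gene and ending before the annotated gene, in lower case, with CCAAT (or ATTGG on the opposite strand) and the CHR letters TTTGAA (or TTCAAA) in capitals.
Top2a, chr11:99024200-99024319, minus strand: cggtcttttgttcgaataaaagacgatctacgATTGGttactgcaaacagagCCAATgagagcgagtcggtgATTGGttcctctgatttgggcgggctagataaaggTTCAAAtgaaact
Mki67, chr7:135716451-135716509, minus strand: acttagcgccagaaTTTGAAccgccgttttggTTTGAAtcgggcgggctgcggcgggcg
Ube2c (the E2 enzyme of the anaphase-promoting complex), chr2:164769799-164769928, plus strand: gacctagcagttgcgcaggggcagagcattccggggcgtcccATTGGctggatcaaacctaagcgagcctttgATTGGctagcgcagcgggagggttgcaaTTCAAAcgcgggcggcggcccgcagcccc
Ccnb1 (cyclin B1), chr13:100786487-100786616, minus strand: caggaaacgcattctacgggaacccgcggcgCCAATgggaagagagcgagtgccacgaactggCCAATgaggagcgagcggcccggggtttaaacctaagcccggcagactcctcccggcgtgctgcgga
Rrm2 (the ribonucleotide reductase subunit that limits DNA building blocks), chr12:24708124-24708253, plus strand: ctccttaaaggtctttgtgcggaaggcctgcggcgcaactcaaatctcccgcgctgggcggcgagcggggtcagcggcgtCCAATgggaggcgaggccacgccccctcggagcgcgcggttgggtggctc

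Top2a and Ube2c hold both letter sets in the stretches shown, Mki67 holds CHR letters there and CCAAT letters 188, 166 and 141 bases before the start, outside its stretch, Top2a, Ube2c and Ccnb1 hold CCAAT letters more than once, and in Rrm2 only CCAAT was found. In the windows of 300 bases (250 before the start and 50 after it) on either strand, 65.8% of the 73 promoters of 67 mitosis genes held the CHR letters, against 11.1% of the 45 promoters of 37 replication genes and 17.9% of all 32851 promoters. CCAAT stood in 69.9% of mitosis promoters, 55.6% of replication promoters and 37.4% of all promoters, and CHR and CCAAT together in 53.4%, 6.67% and 6.95%. The E2F letters (TTTGGCGC, TTTGCCGC, TTTCGCGC or TTTCCCGC) were in 35.6% of replication promoters, 6.85% of mitosis promoters and 2.26% of all promoters. Among the 6 genes of the rule, 5 had a promoter in the tables used, and CHR letters stood in 4 of these and CCAAT in 5. Matrix and collagen genes, which are described further on, had 27 promoters of 22 genes, with CHR letters in 18.5%, CCAAT in 37.0% and no E2F letters. These matches are descriptions of letters and were not tested as binding sites.

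By the rule, the 6 genes were present in cycling cells and absent from the reference, and their values are a description. Levels are given in CPM, counts scaled to a common library total, with TMM where states are compared. Top2a was detected in 90.6, 91.8 and 88.9% of cycling cells of MT2 replicates 1, 2 and 3, and Mki67 in 88.4, 78.9 and 83.1%. Cenpe was seen in 79.2, 67.5 and 74.6% and Tpx2 in 79.9, 71.0 and 74.2%, whereas Aspm was seen in only 50.2, 40.1 and 44.0%. Around the threshold, cells with a sum of 3 (129, 296 and 143 cells) held 1513, 2888 and 1697 CPM of the replication genes and 2395, 5836 and 3202 of the mitosis and kinetochore genes, and cells with a sum of 4 (86, 251 and 86 cells) held 2116, 3462 and 2252 and 3043, 7363 and 4028. Cells on either side of the threshold thus lay close together, and cells with 20 or more UMIs of the 6 genes held 13809.7, 16142 and 13763 CPM of the mitosis and kinetochore genes.

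Cycling cells were 37.7%, 41.7% and 34.4% of the cells without the excluding genes in the 3 MT2 libraries (exact Clopper-Pearson 95% intervals 35.8 to 39.6, 40.3 to 43.1 and 32.6 to 36.2), a mean of 37.9 ± 3.66% (SD, n = 3). The same rule took 14.1 ± 2.14% of MT1 cells (n = 5), with the highest MT1 library at 16.8%, so the libraries of the tumors did not overlap. In the glands it took 0.881 ± 0.228% of MG1 cells (n = 2) and 1.90 ± 0.277% of MG2 cells (n = 2). Deeper cells reach 4 UMIs more easily, so every cell was also thinned to 1500 UMIs and counted as cycling at 2 or more, which left out 361 MT2, 1064 MT1, 2 MG1 and 166 MG2 cells with fewer UMIs. The thinned shares were 35.0%, 47.4% and 32.0% in MT2 (mean 38.1 ± 8.15%), 10.7 to 23.2% in MT1 (mean 17.7 ± 5.09%), and 1.03% and 1.96% on average in MG1 and MG2, again without overlap between the tumors. As a background for free RNA in droplets, 72 of the 244 MT2 cells that carried a UMI of the 4 excluding genes also reached a sum of 4 (29.5%, interval 23.9 to 35.7), at a median of 2482.5 UMIs per cell against 3101 in the other MT2 cells, and 69 of 226 (30.5%) did after thinning. Since tumor cells may share droplets with these cells and doublets were not removed, that share is no measure of free RNA alone, and its source was not tested.

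**Figure D1:**
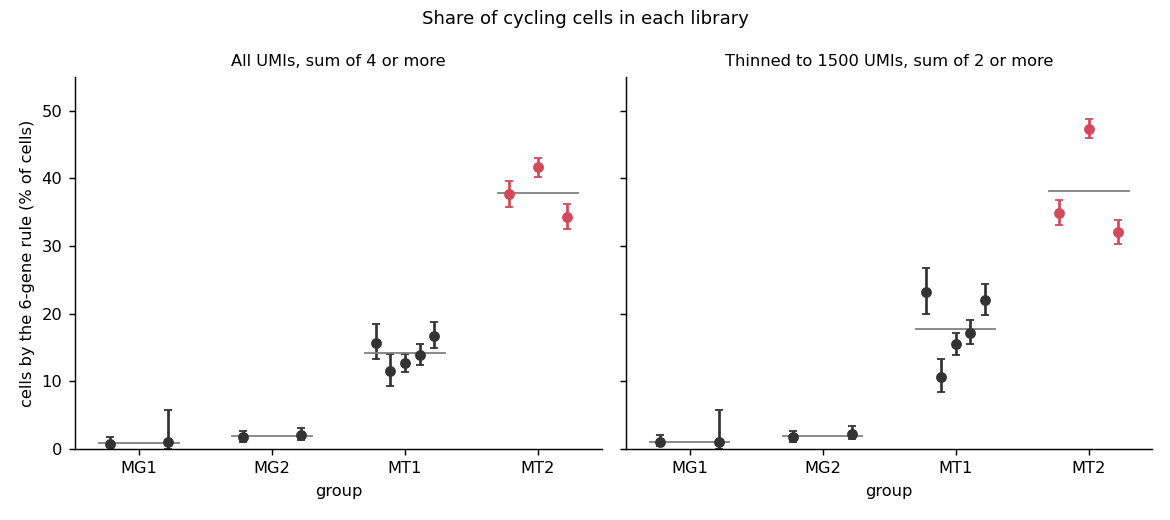
Share of cells taken by the 6-gene rule (percent of cells without the excluding genes) in each library of the glands (MG1, MG2) and tumors (MT1, MT2), with all UMIs on the left and after thinning to 1500 UMIs on the right. Points are libraries with exact 95% Clopper-Pearson intervals, grey lines are group means, and the MT2 libraries (red, 34.4 to 41.7% on the left) lie above the MT1 libraries (11.5 to 16.8%).

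Cycling cells were deeper than the reference, with median UMIs per cell outside the 6 genes of 6574.5, 2774 and 5623 against 3463, 1999.5 and 2983. Part of this follows from the rule, and with cells chosen after thinning, which does not favour deep cells, the ratio of median UMIs between cycling cells and cells with a sum of 0 was 1.34, 1.10 and 1.28 (mean 1.24 ± 0.12, SD, n = 3). For all comparisons below, both states were cut to the same number of cells in each library and in each step of 0.1 log2 UMIs, which left 2152 cells per state (505, 1115 and 532), at medians of 4266, 2121 and 3701.5 UMIs in cycling cells and 4240, 2134 and 3774 in non-cycling cells. The 12 libraries of the series ranged from 693333 to 14841414 UMIs, and the MT2 libraries from 13629813 to 14841414 UMIs. Mitochondrial RNA took 7.94%, 4.54% and 5.12% of UMIs in the matched cycling cells and 8.65%, 5.05% and 5.34% in the matched non-cycling cells. More genes were detected per cycling cell at matched depth, with medians of 1902, 1211 and 1753.5 against 1810, 1158 and 1674.5.

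Genes of other cell types were chosen after seeing the data, as genes that few tumor cells show. A low share of cells with them follows from that choice, and Dcn and Pdgfra were not among them. Cells carrying these genes were more frequent in the reference. A UMI of 7 fibroblast genes (Lum, Dpt, Mfap4, Mfap5, Cxcl14, Pi16 and Clec3b) was found in 50 of 2152 matched cycling cells (2.32%) and 105 of 2152 matched non-cycling cells (4.88%, with 8.12%, 3.14% and 5.45% in MT2 replicates 1, 2 and 3). The 12 genes of the fibroblast list summed to 926 to 1072 CPM in the cycling sums and 1269 to 1520 CPM in the non-cycling sums, mostly from Dcn, of which 85.3%, 79.3% and 83.3% of all cycling cells held a UMI. Lum, a proteoglycan of fibroblasts, gave 86 UMIs in cycling and 307 in non-cycling cells, Dpt gave 18 and 84, and Dpp4 gave 0 in both. The epithelial list summed to 714 to 967 CPM against 717 to 1042 CPM, nearly all from the keratins Krt18 and Krt8 and from Wfdc2, while the basal keratins Krt5 and Krt15 had 0 UMIs and Epcam had 47 and 246 UMIs. Endothelial genes summed to 4.70 to 9.17 CPM against 8.58 to 10.5 CPM, mural genes to 4.73 to 8.74 CPM against 3.93 to 11.3 CPM and leukocyte genes to 12.4 to 66.8 CPM against 16.3 to 44.0 CPM. Red blood cell genes stood at 0 to 0.727 CPM in cycling cells and at 164 CPM in the non-cycling cells of MT2 replicate 2, with 0 in the other non-cycling sums. Because fibroblasts make collagens and proteases, the main changes below are also given after leaving out every cell with a UMI of any of 16 genes (the 7 fibroblast genes, Rgs5, Acta2, Tagln, Csf1r, C1qa, C1qb, Kdr, Flt1 and Epcam), which removed 296 of all 3896 cycling cells (7.60%) and 331 of all 2850 non-cycling cells (11.6%) before the states were matched again at 1988 cells each.

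Cycling and non-cycling cells differed in many genes. Of 10331 genes tested with edgeR, 1520 (14.7%) were higher in cycling cells and 1422 (13.8%) lower at an adjusted p under 0.05, and the median log2 fold change of all genes was -0.02. Without cells carrying genes of other types, 1444 (14.5%) of 9943 genes were higher and 1314 (13.2%) lower, and 1381 of the 1520 and 1181 of the 1422 kept their call. With DESeq2 in place of edgeR 669 were higher and 414 lower. Counts of listed genes in the following paragraphs can be read against these shares.

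The cell cycle program beyond the 6 genes was the plainest difference. All 79 tested genes of the mitosis list rose (median log2 fold change 3.55), as did all 44 tested genes of DNA replication (median 2.02), 23 of 24 kinetochore genes (median 2.58), 27 of 30 histone and chromatin genes (median 1.32) and 29 of 33 DNA repair genes (median 2.59). These lists follow from the rule, which picked cells in these phases. Without cells carrying genes of other types, the medians were 3.41, 1.95, 2.53, 1.24 and 2.54. Smc4, a subunit of the condensin that compacts chromosomes, stood at 1204, 1223 and 1123 CPM in cycling cells against 208, 258 and 224 CPM in non-cycling cells (log2 fold change 2.36 ± 0.05 (SE), adjusted p = 8.00e-30). Rrm2, whose promoter is shown above, stood at 86.5, 128 and 82.4 CPM in cycling cells against 4.86, 15.1 and 5.73 CPM in non-cycling cells (log2 fold change 3.49 ± 0.15 (SE), adjusted p = 5.29e-21). Pcna, the clamp that holds DNA polymerase on its template, stood at 272, 281 and 311 CPM in cycling cells against 81.8, 111 and 107 CPM in non-cycling cells (log2 fold change 1.52 ± 0.07 (SE), adjusted p = 5.99e-20). For these 3 genes every cycling sum lay above every non-cycling sum. Most named genes were picked for a large change or a high level. The share of all genes whose sums lie apart was not counted, so such separation is a description here and below. Ccnb1 was detected in 27.3, 24.8 and 24.5% of cycling cells and 0.398, 1.03 and 0.963% of non-cycling cells of the 3 libraries, before matching. The largest changes on the list of mitosis were Pimreg at 5.71 and Iqgap3 at 5.40, those on the kinetochore list Oip5 at 3.80 and Knl1 at 3.73, and Zwint, at 0.02 ± 0.08 (adjusted p = 0.87), was the one kinetochore gene that did not pass. Pimreg, Iqgap3 and Oip5 are low, at mean levels of 4.94, 3.99 and 4.45 CPM, and leaving out 1 library moved them to between 5.02 and 7.57, 4.98 and 7.04, and 3.21 and 4.98, against 3.59 to 3.89 for Knl1, so that their order is not fixed. Histone H1.5 (Hist1h1b, 3.70) and the chromatin protein Hmgb1 (1.24) rose, and Plk4, which starts centriole copying, rose by 3.10.

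Outside these lists, the named genes that rose most were also mostly known cell cycle genes. Ska1, part of the complex that keeps kinetochores on moving microtubule ends, stood at 48.9, 65.6 and 57.8 CPM in cycling cells against 1.33, 3.32 and 3.53 CPM in non-cycling cells (log2 fold change 4.37 ± 0.21 (SE), adjusted p = 9.06e-20). Pclaf, a PCNA-binding factor, stood at 157, 158 and 165 CPM in cycling cells against 7.52, 16.6 and 7.50 CPM in non-cycling cells (log2 fold change 3.87 ± 0.14 (SE), adjusted p = 9.32e-24). Diaph3, a formin that builds actin filaments, stood at 254, 227 and 196 CPM in cycling cells against 23.4, 33.2 and 21.6 CPM in non-cycling cells (log2 fold change 3.09 ± 0.10 (SE), adjusted p = 3.05e-25). In all 3 genes, picked for the size of their change, the states did not overlap. The other highest changes were Dlgap5 4.29, Kif15 3.93, C330027C09Rik 3.18, Lockd 3.07, Hirip3 2.80, Slfn9 2.62, Gmnn 2.54, Dtl 2.52 and Rfc5 2.37. Dlgap5 and Kif15 act on the spindle, Gmnn and Dtl keep DNA from being copied more than once per cycle, Rfc5 loads PCNA, and Lockd is a long noncoding RNA next to Cdkn1b. Each of the 12 rose in every library and kept its call without cells carrying genes of other types.

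Brca1, the gene floxed in these mice (mouse chromosome 11, bases 101488761 to 101551955 of GRCm38), stood at 10.4, 15.4 and 15.1 CPM in cycling cells against 1.77, 1.47 and 0.882 CPM in non-cycling cells (log2 fold change 3.27 ± 0.37 (SE), adjusted p = 2.50e-09). No sums of the states overlapped, and without cells carrying genes of other types the change was 3.55 ± 0.41. The 3′ tags do not show whether the floxed exon was removed, so these levels are of RNA from the locus and not of functional Brca1. Among other repair genes, the recombination factor Rad54l rose by 4.27, the cohesin subunit Rad21 by 1.54 and Rbbp8 (CtIP, which trims DNA ends) by 0.46. Rbbp8 did not pass when cells with fibroblast, mural or Epcam UMIs were left out (0.18, adjusted p = 0.43). Trp53 stood at 8.65, 12.9 and 7.76 CPM in cycling cells against 10.2, 10.3 and 11.9 CPM in non-cycling cells, with overlapping states (log2 fold change -0.12 ± 0.25 (SE), adjusted p = 0.77). Of 19 tested p53 target genes, 1 rose and 2 fell (median -0.10), and without cells carrying genes of other types 2 rose and 2 fell. The one that rose with all cells was Cdkn1a, the CDK inhibitor p21, at 192, 234 and 190.2 CPM in cycling cells against 169, 192 and 175 CPM in non-cycling cells (log2 fold change 0.20 ± 0.07 (SE), adjusted p = 0.017). Cdkn1a did not pass with DESeq2 (adjusted p = 0.39) or when cells with fibroblast, mural or Epcam UMIs were left out (0.33, adjusted p = 0.13).

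**Figure D2:**
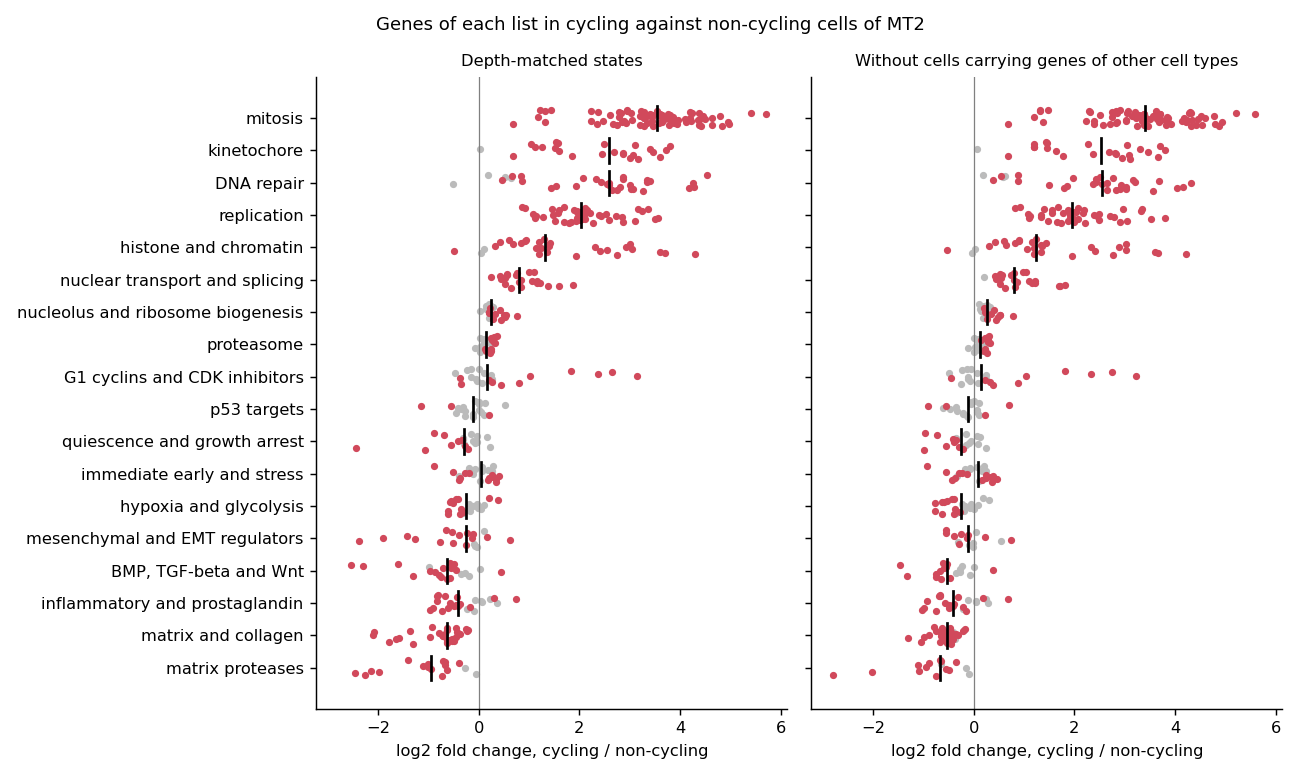
Log2 fold change of single genes of 18 lists between cycling and non-cycling cells of MT2, matched for UMIs per cell, with all cells on the left and without cells carrying genes of other cell types on the right. Points are genes, red where the adjusted p is under 0.05 and grey otherwise, black bars are list medians, and the matrix, protease and inflammatory lists lie mostly below 0 in both panels while the cell cycle lists lie above it.

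Genes of the extracellular matrix were lower in cycling cells. All 30 tested genes of the matrix and collagen list fell (median log2 fold change -0.63), and 27 fell without cells carrying genes of other types (median -0.53). Over 17 settings of the processing, DESeq2 not among them, between 16 and 30 of them fell and none rose. Ranges over settings given further on leave out DESeq2 in the same way. Fn1, which encodes the adhesive glycoprotein fibronectin and is a mesenchymal marker, stood at 1503, 1622 and 1603 CPM in cycling cells against 3034, 2816 and 3351 CPM in non-cycling cells (log2 fold change -0.96 ± 0.04 (SE), adjusted p = 8.01e-21). Without cells carrying genes of other types its change was -0.98 ± 0.04, and both ways every cycling sum lay below every non-cycling sum. Col12a1, a collagen that links fibrils, stood at 75.3, 65.6 and 50.03 CPM in cycling cells against 259, 132 and 193 CPM in non-cycling cells (log2 fold change -1.57 ± 0.10 (SE), adjusted p = 6.22e-16), and without those cells at 44.5, 54.8 and 42.5 CPM in cycling cells against 125, 97.3 and 135 CPM in non-cycling cells (log2 fold change -1.30 ± 0.11). Col3a1, a fibrillar collagen, stood at 337, 281 and 156 CPM in cycling cells against 1154, 619 and 905 CPM in non-cycling cells (log2 fold change -1.77 ± 0.10 (SE), adjusted p = 2.13e-17). Without those cells Col3a1 stood at 121, 167 and 143 CPM in cycling cells against 247, 296 and 361 CPM in non-cycling cells (log2 fold change -1.05 ± 0.07). States stayed apart for both collagens in either set of cells, but the non-cycling level of Col3a1 was lower without those cells. Col1a1 fell by 1.30 on the log2 scale with all cells and by 0.45 without those cells. A stricter exclusion, of every cell with 2 or more fibroblast and mural UMIs or any Epcam UMI, counts Dcn among those genes and kept 582 cells per state. There Col1a1 (0.03, adjusted p = 0.95) and Col3a1 (-0.41, adjusted p = 0.10) no longer passed, while Fn1 (-0.95) and Col12a1 (-1.21) still fell. The basement membrane collagen Col4a1 changed by -0.62 and -0.67, Sparc, which binds collagen, by -0.71 and -0.53, and Col1a2 by -0.63 and -0.53, all past the test in both. For Postn (-2.09 and -0.89), Bgn (-2.08 and -0.41) and Col6a3 (-1.63 and -0.36), much of the change was lost with those cells, and Bgn and Col6a3 no longer passed (adjusted p = 0.39 and 0.23).

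**Figure D3:**
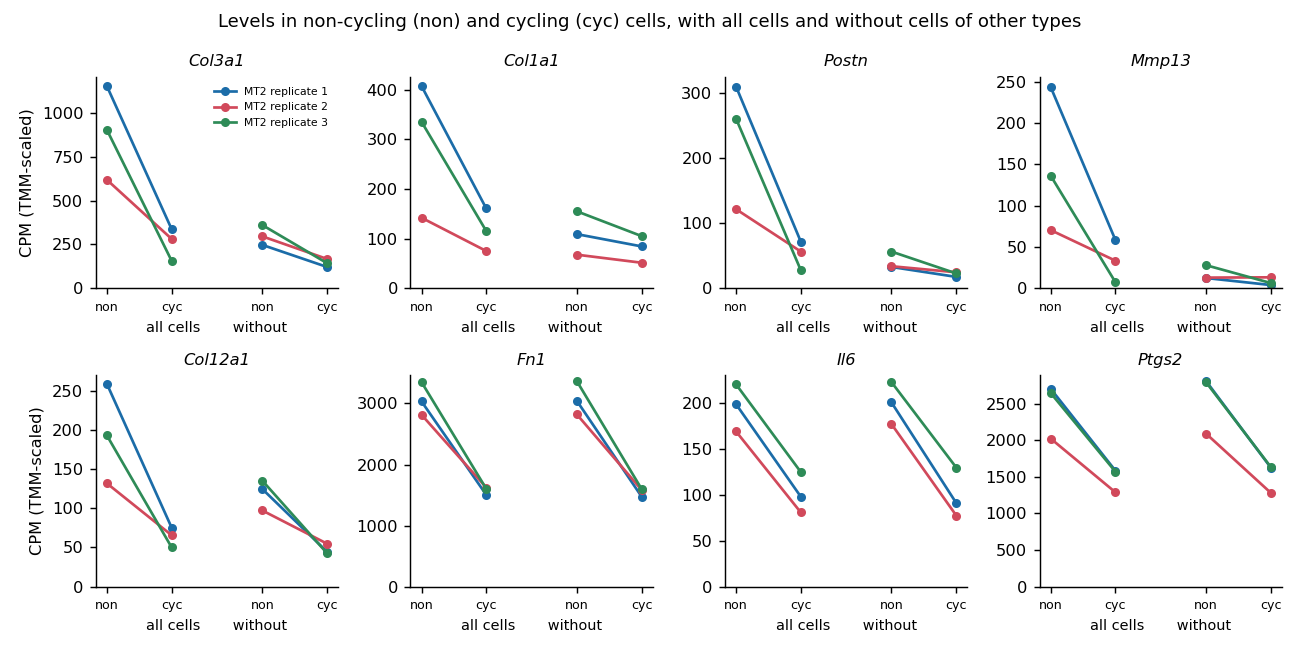
TMM-scaled CPM of 8 genes in non-cycling (non) and cycling (cyc) cells of each MT2 library, with all matched cells on the left of each panel and without cells carrying genes of other cell types on the right. Lines join the sums of 1 library, and Fn1, Il6 and Ptgs2 keep their levels and their difference without those cells while Col1a1, Postn and Mmp13 are much lower there.

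Matrix proteases and their regulators fell too. Of 17 tested, 15 fell and none rose (median -0.95), and of 15 tested without cells carrying genes of other types 12 fell (median -0.68). Over 17 settings the number that fell ran from 6 to 16. Mmp3, stromelysin 1, stood at 26.8, 17.9 and 16.0 CPM in cycling cells against 140.1, 101 and 49.8 CPM in non-cycling cells (log2 fold change -2.26 ± 0.13 (SE), adjusted p = 2.29e-17). Without those cells the Mmp3 levels were 1.94, 3.50 and 8.70 CPM in cycling cells against 6.43, 57.1 and 28.9 CPM in non-cycling cells (log2 fold change -2.80 ± 0.26 (SE), adjusted p = 5.14e-13). The levels without those cells are low and overlap between libraries. Mmp13, an interstitial collagenase, changed by -2.14 ± 0.18 with all cells and by -1.08 ± 0.27 without those cells, where its levels were 3.87, 13.2 and 6.29 CPM in cycling cells against 12.4, 12.9 and 27.9 CPM in non-cycling cells, so that the states overlapped and MT2 replicate 2 showed no fall. Other proteases kept their change without those cells, with Mmp2 at -0.72 and -0.75, the membrane-bound Mmp14 at -0.63 and -0.49, the lysosomal Ctsl at -0.66 and -0.65 and Ctsb at -0.70 and -0.68. Under the stricter exclusion Mmp2 (-0.64), Ctsl (-0.44) and Ctsb (-0.43) still fell, Mmp14 (-0.31, adjusted p = 0.17), Mmp19 (-0.27, adjusted p = 0.62) and Plat (-0.65, adjusted p = 0.080) no longer passed, and Mmp3 and Mmp13 were too low to be tested.

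Secreted inflammatory factors and prostaglandin genes fell, with exceptions. Of 24 tested, 15 fell and 2 rose (median -0.41), and without cells carrying genes of other types 16 fell and 2 rose (median -0.41). Il6, the cytokine interleukin-6, stood at 97.8, 80.7 and 125 CPM in cycling cells against 198, 169 and 220.1 CPM in non-cycling cells (log2 fold change -0.96 ± 0.07 (SE), adjusted p = 1.25e-13). Ptgs2 (COX-2), the inducible enzyme of prostaglandin synthesis, stood at 1584, 1288 and 1569.8 CPM in cycling cells against 2703, 2023 and 2645 CPM in non-cycling cells (log2 fold change -0.73 ± 0.04 (SE), adjusted p = 4.84e-18). Neither gene overlapped between states, and without cells carrying genes of other types the changes were -1.02 ± 0.08 and -0.76 ± 0.04. Lif, a cytokine of the same family as Il6, fell by 0.90 on the log2 scale and Csf3 (G-CSF) by 0.83. Among chemokines Ccl7 was at -0.49, Cxcl2 at -0.46, Cxcl1 at -0.40, Cxcl5 at -0.37 and Ccl2 at -0.18. Under the stricter exclusion Ccl7 (-0.88), Cxcl5 (-0.69) and Ccl2 (-0.53) fell further, and with DESeq2 Ccl2 did not pass (adjusted p = 0.12). The 2 that rose were the leukocyte adhesion receptor Icam1 (0.74 ± 0.16) and the acute phase protein Saa3 (0.30 ± 0.06), but neither passed under the stricter exclusion, where Icam1 was at 0.45 (adjusted p = 0.56) and Saa3 had the opposite sign (-0.25, adjusted p = 0.19). With DESeq2 Icam1 did not pass either (adjusted p = 0.11).

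Signalling genes of the BMP, TGF-beta and Wnt pathways fell more often than they rose. Of 21 tested, 15 fell and 1 rose (median -0.63), and without cells carrying genes of other types 11 of 18 fell and 1 rose (median -0.53). Inhba, which encodes the activin A subunit, stood at 1325, 1211 and 1099.8 CPM in cycling cells against 2125, 2007 and 1945 CPM in non-cycling cells (log2 fold change -0.74 ± 0.04 (SE), adjusted p = 5.21e-18). Grem1, a secreted BMP antagonist, stood at 837, 749 and 768 CPM in cycling cells against 1337, 1076 and 1248 CPM in non-cycling cells (log2 fold change -0.63 ± 0.04 (SE), adjusted p = 1.00e-14). Both were lower in every cycling sum than in every non-cycling sum. The other ligand and antagonist genes that fell included Tgfb2 (-0.79), the activin antagonist Fst (-0.54), the Wnt modulator Dkk3 (-1.60) and Inhbb (-1.30). Of response genes, Ctgf (-0.57), Cyr61 (-0.48) and Id3 (-0.46) fell, and Id1 rose (0.44 ± 0.10). Neither Id gene passed under the stricter exclusion (Id3 -0.09, adjusted p = 0.89, and Id1 0.45, adjusted p = 0.20) or with DESeq2 (adjusted p = 0.25 and 0.13), while Ctgf (-0.54) and Cyr61 (-0.79) still fell under that exclusion. Thbs1, which activates latent TGF-beta, fell by 0.81 on the log2 scale.

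The named genes outside the cell cycle lists that fell most were, with all cells, partly those of fibroblasts. They were Mmp3 -2.26, Crabp1 -2.22, Mmp13 -2.14, Postn -2.09, Bgn -2.08, Col3a1 -1.77, Apoe -1.73, Col6a3 -1.63, Col12a1 -1.57, Hist1h2al -1.53, Dio2 -1.41 and Thbs2 -1.36. Hist1h2al belongs to a family of near-identical histone genes whose reads may be split among copies, so its value is uncertain. Apoe, a lipid carrier, and Dio2, which activates thyroid hormone, kept their size without cells carrying genes of other types (-1.84 and -1.39), Thbs2 was at -0.75, and Crabp1 was too low there to be tested. Under the stricter exclusion Dio2 still fell (-1.34), but Apoe (-0.63, adjusted p = 0.28), Postn (-0.85, adjusted p = 0.076) and Thbs2 (-0.28, adjusted p = 0.72) no longer passed. The same rule applied without those cells added Gdpd2 -2.11, Nrep -1.32, Prelp -1.30, Serpinb1a -1.27, Ramp1 -1.25, Mxd4 -1.23, Lbh -1.22 and Atp2b4 -1.16, of which only Prelp (-0.55, adjusted p = 0.42) no longer passed under the stricter exclusion. Gdpd2, a glycerophosphodiesterase, stood there at 8.22, 12.1 and 13.1 CPM in cycling cells against 41.6, 40.2 and 65.2 CPM in non-cycling cells (log2 fold change -2.11 ± 0.17 (SE), adjusted p = 4.41e-15). Its cycling sums all lay below its non-cycling sums. Mxd4 is a MAX partner that opposes MYC on shared DNA sites, and Ramp1 is a co-receptor for CGRP.

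Genes tied to growth arrest and to the G1 decision moved in both directions. Of 19 tested quiescence and growth arrest genes, 9 fell and none rose (median -0.29), and without cells carrying genes of other types 9 of 18 fell (median -0.25). Those that fell included Gas1, named for its induction in arrested cells (-1.07), Cited2 -0.88, Sesn3 -0.68, Btg2 -0.55 and Klf4 -0.41. The number that fell ran from 2 to 13 over 17 settings, and under the stricter exclusion Cited2 (-1.13) and Klf4 (-0.57) still fell while Gas1 (-0.65, adjusted p = 0.086), Sesn3 (-0.50, adjusted p = 0.20) and Btg2 (-0.34, adjusted p = 0.27) no longer passed. Of 22 tested G1 cyclins, CDK inhibitors and their partners, 9 rose and 2 fell (median 0.16). Ccnd1, cyclin D1, which starts the phosphorylation of RB, stood at 400.3, 390.4 and 346 CPM in cycling cells against 283, 316 and 240.4 CPM in non-cycling cells (log2 fold change 0.44 ± 0.06 (SE), adjusted p = 8.25e-08). All its cycling sums lay above the non-cycling ones. Those that rose most were Cdkn3 3.14, E2f7 2.65, Rbl1 2.37, E2f8 1.83 and Cdkn2d 1.01, followed by Cdk2 0.81, Ccnd1 0.44 and Cdk4 0.27. Of these Cdk2 and Cdk4 did not pass with DESeq2 (adjusted p = 0.39 and 0.36). Ccnd2 (-0.35) and the p15 gene Cdkn2b (-0.36) fell, but neither passed with DESeq2 (adjusted p = 0.45 and 0.38) or under the stricter exclusion (-0.35, adjusted p = 0.48, and -0.71, adjusted p = 0.058), and Ccnd2 no longer passed without cells carrying genes of other types (adjusted p = 0.13). Cdkn2a had a change of -0.06 ± 0.06 (adjusted p = 0.52) and Myc one of -0.22 ± 0.10 (adjusted p = 0.083).

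Malat1, Neat1 and the genes of nuclear traffic also differed between the states. All 23 tested genes of nuclear transport and splicing rose (median 0.79, and 22 of 23 without cells carrying genes of other types), among them the importin Kpna2 (1.87), the transport GTPase Ran (0.64) and the splicing factor Hnrnpa2b1 (0.57). Malat1, a long noncoding RNA of nuclear speckles, stood at 14948, 14616 and 12222 CPM in cycling cells against 28445, 21522 and 21029 CPM in non-cycling cells (log2 fold change -0.76 ± 0.04 (SE), adjusted p = 2.90e-18). Neat1, the long noncoding RNA that builds paraspeckles, stood at 110.3, 94.7 and 117 CPM in cycling cells against 262, 181 and 232 CPM in non-cycling cells (log2 fold change -1.06 ± 0.07 (SE), adjusted p = 5.12e-15). Both were lower in every cycling sum. Of the 6 tested nuclear long noncoding RNAs 4 fell and 1 rose, and without cells carrying genes of other types 3 of 5 fell and none rose, with Xist at -0.04 (adjusted p = 0.85) under the stricter exclusion. Of the 18 genes of the nucleolus and of ribosome assembly, 11 rose and none fell (median 0.25), with Nop58 0.77, Ncl 0.45 and Npm1 0.28. Proteasome subunits changed little, with 12 of 26 higher and none lower (median 0.15), and over 17 settings this count ran from 0 to 19. Nuclear genes of the respiratory chain gave 8 higher and 1 lower of 21 (median 0.12, 1 to 14 higher over the settings), and mitochondria-encoded genes 5 lower of 8 (median -0.15); the mitochondrial share of UMIs was also lower in cycling cells, as given above, and its part was not tested.

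Other programs were mixed. Of 24 hypoxia and glycolysis genes 11 fell and 2 rose (median -0.25), with the angiogenic factor Vegfa at -0.60 and Bnip3, which acts in mitophagy, at -0.57. Over 17 settings 3 to 13 fell and 0 to 3 rose, and without cells carrying genes of other types 11 fell and 0 rose. Of 24 immediate early and stress genes 7 rose and 6 fell (median 0.05), with Atf3 0.40, Fos 0.35, Jun 0.34 and Egr1 0.29 on one side and Hmox1 -0.88 and Jund -0.37 on the other, and the number that rose ran from 0 to 8 over 17 settings. With no matching of UMIs Fos (-0.09), Jun (-0.12) and Atf3 (-0.09) had the opposite sign and did not pass. Fos rose in 2 of the 3 libraries and did not pass with DESeq2 (adjusted p = 0.54), and under the stricter exclusion Fos (0.31, adjusted p = 0.062) and Atf3 (0.24, adjusted p = 0.32) did not pass. Tissue dissociation induces such genes, and its part was not tested. Of 20 genes of MHC class I and the interferon response 3 rose and 6 fell, with Irf1 at 0.93, Psmb8 at 0.43, Ifit1 at 2.36 and B2m at -0.32, of which Psmb8 did not pass under the stricter exclusion (0.33, adjusted p = 0.15). Ifit1 rested on MT2 replicates 1 and 3, at 19.9, 2.51 and 7.76 CPM in cycling and 2.21, 2.58 and 0.441 CPM in non-cycling cells. Of 20 lipid synthesis genes 6 rose and 2 fell, with Idi1 at 0.72 (not past the test with DESeq2, adjusted p = 0.41) and the desaturase Scd1 at -0.73.

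The lineage of the cycling cells was read from markers of mesenchymal and epithelial state. Vim, the intermediate filament of mesenchymal cells, was detected in 99.9, 99.7 and 99.6% of cycling and 99.1, 98.5 and 98.8% of non-cycling cells. Its level was 4058, 3965 and 3748 CPM in cycling cells against 3954, 4029.9 and 3999.8 CPM in non-cycling cells, with overlapping states (log2 fold change -0.03 ± 0.04 (SE), adjusted p = 0.65). The keratins Krt8 and Krt18 had changes of 0.03 ± 0.06 and 0.10 ± 0.05 (adjusted p = 0.82 and 0.17), with Krt8 lower under the stricter exclusion (-0.39, adjusted p = 0.0099), and Epcam was detected in 1.75, 0.951 and 1.73% of cycling and 1.99, 1.03 and 1.44% of non-cycling cells. Cells of both states thus held Vim, Dcn, Krt8 and Krt18 and almost no Epcam, but not all markers stood at equal levels. Dcn gave 5251 UMIs in matched cycling and 7365 in matched non-cycling cells. Of 9 tested fibroblast markers 8 fell (median -1.63), and of 6 tested epithelial markers 2 fell (median -0.39), against 13.8% of all genes. Without cells carrying genes of other types 3 of 4 fibroblast markers fell (median -0.38) and 0 of 3 epithelial markers. Of 19 mesenchymal genes and regulators of the epithelial to mesenchymal transition 13 fell and 2 rose (median -0.25), but without cells carrying genes of other types 7 of 15 fell (median -0.11). On a short list of genes known from neural tissue, the stem cell filament Nes rose (1.14), and Nrp1 (-0.76), Sox4 (-0.66) and Ncam1 (-0.22) fell. Nes did not pass with DESeq2 (adjusted p = 0.21), and Ncam1 passed neither there (adjusted p = 0.065) nor under the stricter exclusion (-0.22, adjusted p = 0.15). Of the leukocyte list 2 genes could be tested and 1 fell, and no mural, endothelial or red blood cell marker had enough UMIs for a test.

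The levels were also followed over classes of the 6-gene sum (0, 1, 2 to 3, 4 to 9, and 10 or more UMIs) in cells without genes of other types. These classes hold all such cells of a library (271 to 633 in MT2 replicate 1, 714 to 1174 in replicate 2 and at least 352 in replicate 3), were not matched for depth, and are described without a test. In that order of classes, Fn1 stood at 2975, 2649.6, 2467, 1552 and 1412 CPM in MT2 replicate 1, 2793, 2524, 2114, 1688 and 1640.1 in replicate 2 and 3317, 2967, 2583, 1938 and 1504 in replicate 3. Fn1 was thus lower in each higher class of every library, and the cells with 1 to 3 UMIs of the 6 genes, which belong to neither state, lay between the states. Il6 was lowest in the 2 highest classes of each library, at 77.4 to 106 CPM there and at 172 to 227 in the class with 0. Malat1 stood at 28022, 26336, 21978, 15258 and 14168 CPM in MT2 replicate 1, 21583, 20062, 16695, 15054 and 14037 in replicate 2 and 21499, 18286, 15793, 12544 and 10875 in replicate 3. Brca1 rose over the classes in MT2 replicates 2 and 3, whereas in replicate 1 it was low up to the class of 4 to 9 and high only in the top class. Brca1 stood at 1.18, 3.50, 3.14, 3.28 and 16.5 CPM in MT2 replicate 1, 1.83, 7.17, 11.0, 15.3 and 17.6 in replicate 2 and 1.17, 2.01, 7.34, 16.8 and 19.1 in replicate 3, which rests on few UMIs.

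**Figure D4:**
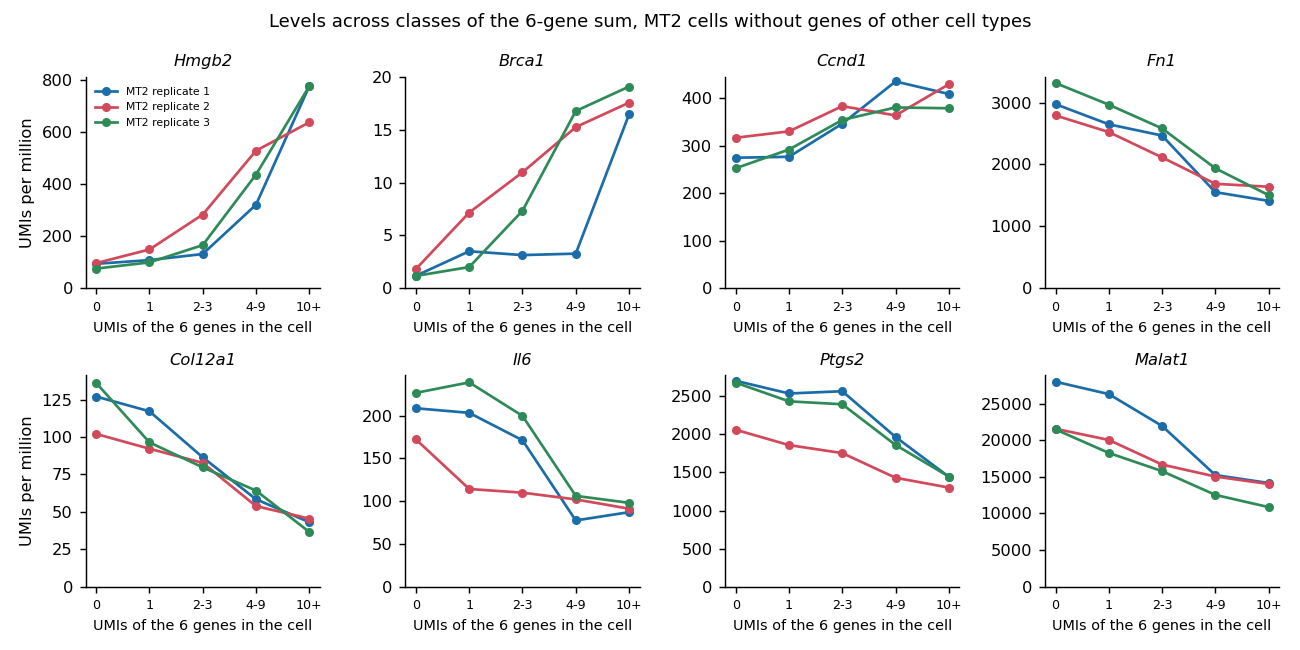
CPM of 8 genes in MT2 cells without genes of other cell types, by class of the UMI sum over the 6 genes of the rule (0, 1, 2 to 3, 4 to 9, 10 or more), not matched for depth. Lines join the classes of 1 library, with Hmgb2, Brca1 and Ccnd1 higher and Fn1, Col12a1, Il6, Ptgs2 and Malat1 lower in the top class than in the class with 0.

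Cycling cells differed in their share of replication UMIs, and the ends of that range were compared. The share of replication UMIs among the UMIs of the replication, mitosis and kinetochore lists was taken in each cycling cell with 10 or more of these UMIs (960, 1973 and 911 cells), and had a median of 25.8%, 21.0% and 25.5% in the 3 libraries. In each library the third of cells with the lowest share, called the mitotic end (medians 11.4%, 10.5% and 12.5%), was set against the third with the highest, called the replicating end (42.2%, 36.4% and 41.8%), after matching on UMIs at 252, 571 and 238 cells each. Before matching the ends also differed in the 6-gene sum, with medians of 30.5, 11 and 18 at the mitotic end and 10, 6 and 8 at the replicating end. By its median share, the replicating end still held more mitosis and kinetochore UMIs than replication UMIs. The ends are ranges of a score and not cell types, and the genes of the 3 lists and the 6 genes were not tested. Of 9574 genes, 340 (3.55%) were higher and 476 (4.97%) lower at the mitotic end (412 and 355 when scaled to library totals only).

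Arl6ip1, a membrane protein of the endoplasmic reticulum, stood at 553, 813 and 523 CPM at the mitotic end against 102, 206 and 123 CPM at the replicating end (log2 fold change 2.15 ± 0.07 (SE), adjusted p = 5.33e-19), with no overlap between ends. Also higher at the mitotic end were Cdkn3 1.87, Ccdc18 1.54, Dlgap5 1.46, Trim59 1.42, Kpna2 1.38, Cdkn2d 1.36 and Gas2l3 1.32. Cdkn3 is a phosphatase of CDKs, Gas2l3 links actin and microtubules, and Kpna2 imports proteins into the nucleus. Among those higher at the replicating end were Rnf168 -1.28, Cdca7 -1.24, Slfn9 -1.20, Timeless -1.15 and Tipin -1.0. Timeless and Tipin form a complex that protects replication forks, and Rnf168 marks chromatin at DNA breaks. Tipin stood at 63.3, 87.3 and 78.4 CPM at the mitotic end against 135, 159 and 164 CPM at the replicating end (log2 fold change -1.0 ± 0.09 (SE), adjusted p = 6.43e-09), again without overlap. Among the genes named by rank at 30 CPM or more, the pseudogene Pcna-ps2 had the most negative value, at -1.62, and may hold reads of Pcna. These genes also kept their direction and call without cells carrying genes of other types.

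DNA repair genes were more often higher at the replicating than at the mitotic end, with 10 of 32 tested higher there and 1, the cohesin subunit Rad21 (0.90), higher at the mitotic end (median -0.47). Among the 10 were Exo1 -1.34, Parp1 -0.98, Topbp1 -0.83 and Brca2 -0.74, and Brca1 stood at 13.3, 14.4 and 12.4 CPM at the mitotic end against 16.3, 19.9 and 26.1 CPM at the replicating end (log2 fold change -0.60 ± 0.23 (SE), adjusted p = 0.11). Histone genes divided, with Hist1h1c at 1.22 and Hist1h1a at -1.44 (not past the test without MT2 replicate 1, adjusted p = 0.11, or 2, adjusted p = 0.19), and 11 of 30 histone and chromatin genes were higher and 7 lower at the mitotic end. Of 24 immediate early and stress genes 9 were higher and 1 lower at the mitotic end (median 0.31). Egr1, a transcription factor of the early growth response, stood at 651, 351 and 562 CPM at the mitotic end against 317, 245 and 252 CPM at the replicating end (log2 fold change 0.92 ± 0.08 (SE), adjusted p = 1.04e-09). Atf3 (0.86), Jun (0.83) and Fos (0.66) were likewise higher at that end, but Fos did not pass with DESeq2 (adjusted p = 0.30) or without MT2 replicate 2 (0.76, adjusted p = 0.059) and was at 0.39 without MT2 replicate 3. Il6 was higher at the mitotic end too, at 119, 118 and 124 CPM at the mitotic end against 40.2, 77.5 and 83.1 CPM at the replicating end (log2 fold change 0.87 ± 0.13 (SE), adjusted p = 1.98e-05; with DESeq2 adjusted p = 0.098), and the chemokine Ccl2 was higher at the replicating end (-0.57). For Fn1 (0.04 ± 0.04, adjusted p = 0.59) and Ptgs2 (0.01 ± 0.04, adjusted p = 0.89) no difference between the ends passed. Nucleolar genes were lower at the mitotic end in 7 of 18 cases and higher in none, and matrix genes in 5 of 30, with 1 higher.

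**Figure D5:**
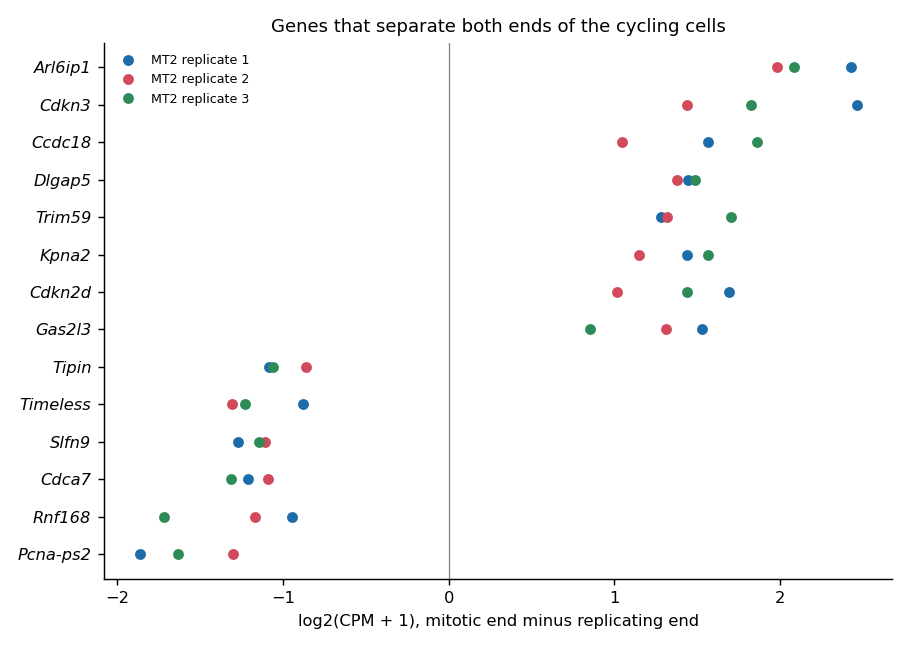
Difference in log2(CPM + 1) between the mitotic and the replicating end of the MT2 cycling cells for the genes the text names as separating the ends. Each point is 1 library, and all 3 libraries lie on the same side of 0 for each gene, from Arl6ip1 at the top to Pcna-ps2 at the bottom.

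The same 2 states were formed in MT1, where 1064 cells were cycling and 4819 were not by the rule, and the cycling change was compared between tumors over 3146 matched cells per state in all. Of 9695 genes, 237 (2.44%) had a higher change in MT2 than in MT1 and 108 (1.11%) a lower one, but with RLE size factors the numbers were 131 and 169 and with library totals 167 and 142, so no majority can be read. There is 1 tumor on each side, and the tumor, the mouse and the libraries cannot be told apart. Fn1 changed by -0.86 in MT1 and -0.96 in MT2 (difference -0.10 ± 0.14, adjusted p = 0.81), Malat1 by -0.70 in MT1 and -0.76 in MT2, Ccnd1 by 0.39 in MT1 and 0.43 in MT2 and Brca1 by 3.74 in MT1 and 3.22 in MT2, and for none of the 4 did a difference between the tumors pass. Without cells carrying fibroblast or mural UMIs, though, the difference of Fn1 was -1.57 and passed (adjusted p = 0.0011). Ptgs2 and Vim, named after their values were seen, did differ. Ptgs2 changed by 0.38 in MT1 and -0.73 in MT2 (difference -1.10 ± 0.14, adjusted p = 3.00e-07), and Vim by 0.94 in MT1 and -0.03 in MT2 (difference -0.97 ± 0.09, adjusted p = 5.84e-10). The keratin genes Krt8 (-0.77 in MT1 and 0.03 in MT2) and Krt18 (-0.92 in MT1 and 0.10 in MT2) differed the other way, so cycling and non-cycling cells of MT1 also differed in mesenchymal and epithelial markers, and the part of this in the other differences was not tested. On the replication list 10 of 45 genes had a higher change in MT2 and 1 a lower one (median of the differences 0.44, against 0.07 for all genes), with Fen1 (0.52 in MT1 and 1.96 in MT2) and Gins2 (0.87 in MT1 and 2.01 in MT2) at the top. Differences of Krt8 (0.15, adjusted p = 0.84), Fen1 (1.5, adjusted p = 0.15) and Gins2 (0.69, adjusted p = 0.60) did not pass without cells carrying fibroblast or mural UMIs, and with no replicate block those of Ptgs2, Vim, Krt8, Krt18, Gins2, Jun and Fos did not pass (adjusted p between 0.057 and 0.34). Of 25 immediate early and stress genes 8 had a higher change in MT2 and none a lower one, among them Jun (-0.55 in MT1 and 0.34 in MT2) and Fos (-0.50 in MT1 and 0.35 in MT2). With no matching of UMIs the difference between the tumors shrank from 0.88 to 0.50 for Jun and from 0.85 to 0.40 for Fos, and without MT2 replicate 3 that of Fos was 0.54. Of 19 quiescence genes 7 had a higher change, that is a smaller fall, in MT2.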

How the data were processed

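The authors sequenced the Drop-seq libraries, counted UMIs per gene and cell with the Drop-seq tools and STAR on GRCm38.p6, and removed cells with extreme gene numbers or mitochondrial shares. The table they deposited holds raw UMI counts, not normalized, of 21743 genes in 21157 cells. The fewest genes in a cell were 800. Libraries shared 0 to 7 cell barcodes. Counting by strand is not given in the sources used here, so overlapping genes and close paralogs are uncertain. Doublets were not removed, but the 5% of cells with most UMIs were left out in an alternative.

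The cells of each state were summed per library and compared by the quasi-likelihood test of edgeR 4.0.16 (R 4.3.3) with the library as block, after TMM scaling and the filterByExpr filter, at a Benjamini-Hochberg adjusted p under 0.05 over all genes. The block comes from the labels, since both states of a library are cells of the same suspension. The 6 genes of the rule were left out of the tables tested. Standard errors come from the log2 fold change and its F value, and CPM are counts scaled to the TMM-scaled total. The tests were also run on simulated counts with a single fixed dispersion and no differences between libraries beyond their totals. The real sums differ from that setting, so no accuracy of the calls is taken from it. DESeq2 1.42.0 was an alternative. Named genes were the 12 highest and 12 lowest called log2 fold changes at a mean of 30 CPM or more with 1 direction in all 3 libraries outside the cell cycle lists (8 and 8 for the ends of the range and for the difference between tumors), up to a few members of each list, and Brca1 and Trp53. Intervals cover counting error only. The members and the gene lists were chosen with earlier results of these data known. The cells carrying 16 genes of other types were left out, and the low and high ends of the replication share were formed, after seeing the data. The ends replaced a cut at 4 UMIs and 3 times the other list, which left 2 replicating cells. Some genes that the rule names are not reported here. Promoters were read from RefSeq tables with a search for exact letters.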

Additional observations from a re-analysis of the deposited data

Results flagged for a closer look

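Results are given here where the change between cycling and non-cycling cells differed between the tumors, as the change in MT2 minus the change in MT1 on the log2 scale by edgeR. The highest differences were Ifit1 3.54, Il6 3.11, Cxcl10 1.57, Ptn 1.44, Spp1 1.34, Fam110a 1.23, Idh1 1.22 and Cdc14a 1.20. The lowest were Ehf -2.51, Igfbp5 -2.42, Crispld2 -2.33, Iqgap2 -2.19, Wfdc18 -2.12, Epcam -1.96, Arhgdib -1.83 and Jmjd1c -1.81. Ptgs2 (-1.10) and Vim (-0.97) were looked at after their values were seen. Without cells carrying 15 genes of other types (Epcam not among them) Il6 (-0.02, adjusted p = 1.00), Crispld2 (-1.18, adjusted p = 0.39), Jmjd1c (-0.97, adjusted p = 0.67) and Iqgap2 (-1.87, adjusted p = 0.051) no longer passed, while Ifit1 (3.53), Spp1 (1.23), Wfdc18 (-2.11) and Igfbp5 (-2.54) did. Without MT2 replicate 1 Cxcl10 was at 0.38 (adjusted p = 0.81), and without MT2 replicate 2 Ehf was at -1.94 (adjusted p = 0.45). Dixon's test, which needs 4 or more libraries, was applied to 9 share values of the same 5 MT1 libraries. No MT1 library stood far from the rest, which chance meets in about 1 of 20 groups. MT2 and the glands had too few libraries, so no library of MT2 was examined.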

How the results depend on the processing

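For cycling against non-cycling cells (1520 genes higher and 1422 lower), DESeq2 gave 669 and 414, and leaving out cells with 2 or more fibroblast and mural UMIs or any Epcam UMI gave 449 and 348, on fewer cells. Without a low-count filter 933 were lower. Leaving out 1 library gave 1184 to 1194 higher and 937 to 1056 lower, the fewest without MT2 replicate 2. With no replicate block, so without pairing the states of a library, 697 were higher and 435 lower. For the ends of the cycling range (340 and 476), DESeq2 gave 61 and 75, no replicate block 61 and 53, and leaving out 1 library 93 to 201 and 111 to 253. For the difference between tumors (237 and 108), no low-count filter gave 112 and 226, RLE size factors 131 and 169, no replicate block 4 and 12, and leaving out fibroblast and mural cells 40 and 33. There DESeq2 gave 62 higher, no matching of UMIs 382 lower, and leaving out 1 library 61 to 196 higher and 68 to 230 lower. The cycling share of MT2 was 43.4% at 3 or more UMIs and 30.7% at 6 or more, and after thinning it was 30.6% at 1000, 38.1% at 1500 and 49.3% at 2500 UMIs. The cause of these shifts was not tested. No named gene passed in both directions, but values changed sign. With no matching of UMIs Fos (-0.089), Jun (-0.12, and -0.00041 after thinning) and Atf3 (-0.091) turned lower. Without fibroblast, mural and Epcam cells Saa3 (-0.25), Higd1a (-0.047) and Cox6c (-0.010) turned lower and Col1a1 (0.034), Slc2a1 (0.030) and Ifitm2 (0.089) higher. Prrx1 turned higher (0.55) without cells carrying 16 genes of other types. None of these passed. Krt8 (-0.39) and Lyz2 (-1.10 with no matching of UMIs, -1.07 without cells carrying 16 genes) passed as lower where their reported values did not pass. In the difference between tumors Il6 (-0.020 and -1.79) and Crispld2 (0.36) turned when such cells were left out. Of the named genes of the first comparison, 70 lost their call with DESeq2, 84 with no replicate block, 67 without fibroblast, mural and Epcam cells (with 7 more that changed sign) and 31 to 32 on leaving out 1 library. Without fibroblast, mural and Epcam cells 125 kept their verdict, and others were too low there to be tested. Of 19 named for the difference between tumors, 15 lost it with no replicate block, 4 with DESeq2 (2 more had no adjusted p), 8 without fibroblast or mural cells (2 more changed sign) and 1 to 7 on leaving out 1 library, most without MT2 replicate 1. Of the 16 of the ends, 4 had no adjusted p with DESeq2 and none lost its call. A looser cut on list UMIs for the ends of the range was formed but not tested, since it left too few replicating cells. MT1 libraries are shallower than those of MT2, which limits low genes in the comparison of tumors.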
